A study of Mus musculus with 15 samples.

Results

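The lysosome is the acidic compartment in which cells break down proteins, sugar chains and lipids, and 40 of its genes were examined in the liver out of 55450 gene IDs in the count table. The genes were taken by symbol from a fixed list, and all 40 passed the filter on low counts, as did 15808 genes in all. They comprised 7 genes of membrane proteins, 11 of proteases and their partners, 13 of glycosidases and sulfatases, 6 of lipid hydrolases and activator proteins, and 3 of regulators and progranulin. RNA was sequenced from the livers of 15 female C57BL/6 mice, 1 library per mouse. Of these, 5 mice began the study at 6 months of age (Adult, A1 to A5) and 5 began at 22 months (Old, O1 to O5), and all 10 were gavaged daily with corn oil alone. The 5 PDX mice (P1 to P5) were also 22 months of age at the start and were gavaged with protectin DX (PDX), a lipid mediator derived from docosahexaenoic acid, at 30 ng per g of body weight in corn oil. The gavage lasted 9 weeks by the treatment protocol and 8 weeks by the description of the series, and only females of 1 inbred strain were sequenced.

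Lysosomal hydrolases are made in the endoplasmic reticulum, are mostly delivered by mannose 6-phosphate receptors, and act at the low pH that the proton pump V-ATPase maintains. Transcription factors of the TFEB family bind E-box sequences in the promoters of many of these genes and can raise them together. In the liver, hepatocytes carry abundant lysosomes, and resident macrophages (Kupffer cells) and recruited macrophages express several cathepsins and lysosomal membrane proteins at high levels. In bulk tissue, fewer cells of a type and less RNA per cell cannot be told apart.

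The counted read pairs ranged from 22424383 to 36070835 per Adult mouse, from 25480180 to 29069346 per Old mouse and from 26113995 to 30139181 per PDX mouse. Values are given as CPM (reads of a gene relative to the library total), with totals scaled by the trimmed mean of M-values (TMM). Every gene of the list had at least 22 counts in every mouse, the lowest being Ctsk. The study reported that gene expression in O2 and O5 differed strongly from that of the other mice. The correlation of log2 CPM between libraries ranged from 0.979 to 0.988 in the Adult group and from 0.969 to 0.981 in the PDX group. In the Old group it ranged from 0.836 to 0.974. Summed levels of 9 hepatocyte markers were 108213 CPM in O2 and 104986 CPM in O5. They were 164126 to 250509 CPM in the other Old mice and 154739 to 169173 CPM in the Adult mice. The labelled tissue thus carried its defining markers in every library. Alb made up most of each Adult sum, and the markers did not move together in O5. There Alb (34724 CPM), Apob, Ttr and Cyp2e1 lay below every Adult value. Hnf4a, Trf and Fgb lay above every Adult value, and Apoa1 and Cps1 lay within the Adult range. The coefficient of variation of the 40 genes had a median of 7.9% among the Adult mice, 30.9% among the Old mice and 10.9% among the PDX mice, and for 37 genes it was larger among the Old mice than among the Adult mice. Over all genes tested the medians were 14.4%, 36.6% and 15.8%.

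Per kilobase of exon sequence, the highest lysosomal transcript in the Adult liver was Psap, the precursor of the saposins that help degrade sphingolipids, at 271 ± 11.5 CPM per kb (SD, n = 5). Lamp1, a heavily glycosylated protein of the lysosomal membrane, followed at 258 ± 6.64 CPM per kb. The cysteine proteases Ctsb and Ctsz came next at 166 ± 14.6 and 161 ± 12.8 CPM per kb, a pair whose levels differed by less than their spread. The lowest were Tfeb at 1.88 ± 0.355, Idua at 1.63 ± 0.155 and Ctsk at 0.731 ± 0.180 CPM per kb. These levels are on the length-scaled scale, whereas all CPM values below are not divided by length.

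**Figure D1:**
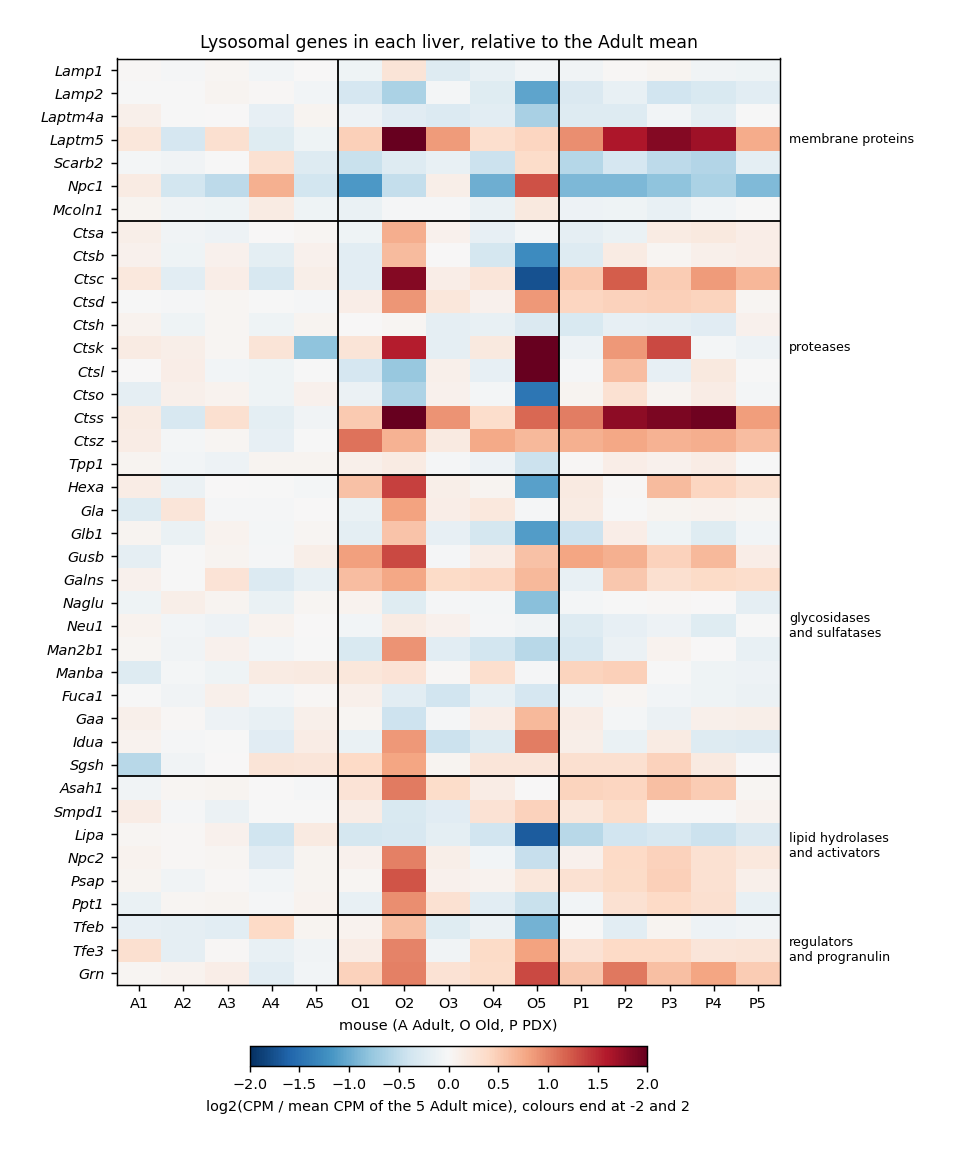
Log2 ratio of each gene's CPM to the mean of the 5 Adult mice, in rows by role and in columns by mouse. The Adult columns vary little, apart from Ctsk in A5, Npc1 in A4 and Sgsh in A1, the O2 column is mostly higher and the O5 column holds both the highest Ctsl and the lowest Lipa, Ctsc and Ctso of the 15 mice.

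The first question was how the vehicle-treated Old livers differed from the Adult livers. Of the 40 genes, 4 were higher in Old than in Adult and 0 were lower (edgeR, Benjamini-Hochberg adjusted over 15808 genes, threshold 0.05). Among all genes, 4.71% were called higher, 2.07% lower and 6.78% in either direction. The 4 genes were Ctsz and Ctss, which encode cysteine cathepsins, Galns, which encodes a sulfatase that acts on keratan sulfate, and Grn, which encodes progranulin. Between the groups, 6 genes did not overlap, all higher in Old, compared with 3.65% of all genes higher without overlap and 4.48% lower. The median log2 fold change was 0.16 over the 40 genes and 0.07 over all genes tested, and 25 of the 40 were above 0 compared with 56.8% of all genes. By role, the test was passed by 2 of 11 proteases, 1 of 13 glycosidases and sulfatases, 1 of 3 regulators and progranulin, 0 of 7 membrane proteins and 0 of 6 lipid hydrolases and activators. The count of 4 was not stable: it was 0 without A2, A3, A4 or A5, 1 without A1, O2, P3 or P4, 2 without P5 and 8 without O3, and 156 to 2178 of all genes were called in the fits that left out 1 mouse. It was 0 when only the 10 Adult and Old mice were fitted, where 0.698% of all genes were called, and 7 with the Wald test of DESeq2, where 14.1% were called.

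Ctsz (cathepsin Z, a carboxypeptidase; chr2:174427493-174439039, minus strand, build GRCm38) was at 258, 226, 238, 208 and 231 CPM in A1 to A5, 495, 374, 264, 395 and 365 in O1 to O5, and 380.4, 399, 378, 386 and 357 in P1 to P5. All 5 Old values and all 5 PDX values lay above the highest Adult value, and O3 was the Old mouse nearest to it. The means were 232 ± 18.4, 379 ± 82.4 and 379.9 ± 15.5 CPM (SD, n = 5), and the log2 fold change of Old over Adult was 0.70 ± 0.15 (SE; edgeR quasi-likelihood test, adjusted p = 0.0198). Ctsz was also the gene called higher in Old without O2 and O5 together, in a fit that called 7.12% of all genes. Leaving out single mice kept its log2 fold change between 0.61 and 0.81, with adjusted p from 0.00396 to 0.0605 and the call lost without A2, A3, A4 or A5. The 250 bases before the RefSeq start of Ctsz are given here with those of Ctss, because both genes were called and neither stretch holds the E-box letters CACGTG, which are described with the regulators below.
Ctsz (chr2:174439040-174439289, minus strand): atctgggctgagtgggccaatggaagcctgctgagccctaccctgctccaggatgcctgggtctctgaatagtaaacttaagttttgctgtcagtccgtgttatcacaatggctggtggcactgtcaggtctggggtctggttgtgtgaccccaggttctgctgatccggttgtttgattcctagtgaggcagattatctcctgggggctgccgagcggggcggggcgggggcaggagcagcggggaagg
Ctss (chr3:95526536-95526785, plus strand): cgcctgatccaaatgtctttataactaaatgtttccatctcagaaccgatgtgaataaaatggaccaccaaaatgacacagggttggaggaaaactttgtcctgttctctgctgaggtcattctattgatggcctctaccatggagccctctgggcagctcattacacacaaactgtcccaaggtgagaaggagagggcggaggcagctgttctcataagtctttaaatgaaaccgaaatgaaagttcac

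Ctss (cathepsin S, the protease that trims the invariant chain in antigen-presenting cells; chr3:95526786-95556403, plus strand) was at 57.3, 40.8, 64.1, 44.7 and 48.95 CPM in A1 to A5, 73.6, 546, 95.1, 65.1 and 113 in O1 to O5, and 104, 177, 188, 196 and 90.9 in P1 to P5. Every Old and every PDX value lay above the highest Adult value, and O2 was far above the other 14 mice. The log2 fold change of Old over Adult was 1.81 ± 0.51 (SE; edgeR quasi-likelihood test, adjusted p = 0.048). Without O2 it was 0.77 and the adjusted p 0.0847, and without both O2 and O5 it was 0.62 with an adjusted p of 0.137. Laptm5, a lysosomal membrane protein of haematopoietic cells, was the membrane gene with the largest change, at 29.2, 19.9, 31.4, 21.2 and 23.5 CPM in A1 to A5, 34.95, 228, 44.9, 31.5 and 33.9 in O1 to O5, and 47.5, 76.4, 89.7, 81.2 and 42.1 in P1 to P5. Its groups did not overlap either, with A3 just under O4, and its log2 fold change of 1.58 ± 0.50 (SE; edgeR quasi-likelihood test, adjusted p = 0.0643) did not pass the threshold. Without O2 it was 0.55 with an adjusted p of 0.169, without both O2 and O5 it was 0.58, and without O1, O3, O4 or O5 singly it passed, with adjusted p from 0.0357 to 0.0457 (edgeR).

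Galns (N-acetylgalactosamine-6-sulfatase; chr8:122578242-122611463, minus strand) was at 7.34, 6.87, 8.30, 5.67 and 6.23 CPM in A1 to A5, 10.5, 11.7, 8.93, 9.14 and 10.8 in O1 to O5, and 6.19, 9.96, 8.58, 8.97 and 8.77 in P1 to P5. The lowest Old value, O3, was above the highest Adult value, A3, whereas P1 lay within the Adult range. The log2 fold change was 0.57 ± 0.15 (SE; edgeR quasi-likelihood test, adjusted p = 0.0383). The call was lost without O2, P3, P4, P5 or any single Adult mouse, with a highest adjusted p of 0.0976 (edgeR). Without both O2 and O5 the log2 fold change of Galns was 0.48, with an adjusted p of 0.0792 (edgeR). Gusb (beta-glucuronidase) showed the largest change of its class, at 31.8, 35.7, 37.4, 35.5 and 39.1 CPM in A1 to A5, 63.7, 89.5, 35.5, 39.8 and 53.6 in O1 to O5, and 61.8, 58.8, 49.1, 56.2 and 39.2 in P1 to P5. O3 lay within the Adult range and O4 just above it, and the log2 fold change of 0.65 ± 0.21 (adjusted p = 0.0685, edgeR) did not pass the threshold, and was 0.43 without O2. The other 11 glycosidases and sulfatases did not pass it, with log2 fold changes from -0.18 for Fuca1 (a fucosidase) to 0.41 for Hexa (a subunit of beta-hexosaminidase).

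Grn (progranulin, a secreted and lysosomal glycoprotein; chr11:102430315-102437048, plus strand) was at 238, 243, 253, 200.3 and 222 CPM in A1 to A5, 319, 463, 283, 299.8 and 576 in O1 to O5, and 335, 479, 351, 401 and 330.5 in P1 to P5. The Old values began above the highest Adult value and O5 was the highest of the 15 mice. The log2 fold change was 0.75 ± 0.20 (SE; edgeR quasi-likelihood test, adjusted p = 0.0376), and without both O2 and O5 it was 0.39 with an adjusted p of 0.0782. Lipa, the acid lipase that hydrolyses cholesteryl esters and triglycerides delivered to the lysosome, had the largest change among the lipid hydrolases and the lowest log2 fold change of the 40 genes, at -0.50 ± 0.22 (adjusted p = 0.156, edgeR) and -0.31 without O5. It was at 347, 341, 360.0, 255 and 384 CPM in A1 to A5, 266, 269, 296, 259.9 and 107 in O1 to O5, and 229, 258, 271, 252 and 277 in P1 to P5. O5 was the lowest mouse and A4 lay below O1 to O4, so the groups overlapped.

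Ctsd, the aspartic protease of the lysosome, was a further gene whose Old values all exceeded the Adult values and was chosen after its values were seen. It was at 257, 254, 264, 256 and 254 CPM in A1 to A5, 282, 472, 301, 271 and 469.6 in O1 to O5, and 345, 355, 358, 349 and 263 in P1 to P5. O2 and O5 were nearly equal and above the remaining mice, and its log2 fold change of 0.48 ± 0.17 (adjusted p = 0.0909, edgeR) did not pass the threshold. Exons of Ctsd are overlapped on the same strand by the gene model Gm49369, those of Ctsl by Gm49230 and those of Glb1 by Tmppe, so reads in the shared stretches are ambiguous and the levels of these 3 genes are uncertain.

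The remaining genes did not pass the test. Among the membrane proteins, the log2 fold changes other than that of Laptm5 ran from -0.42 ± 0.17 for Lamp2 to 0.05 ± 0.39 for Npc1 (SE), with Lamp1 at -0.05, Scarb2 (the receptor that carries glucocerebrosidase) at -0.15, Laptm4a at -0.28 and the calcium channel Mcoln1 at -0.01. Among the proteases and their partners not described with every mouse, they ran from -0.11 for Ctsb to 1.37 ± 0.52 for Ctsk, the collagen-degrading cathepsin, whose level was 0.63 to 1.32 CPM in the Adult mice, 3.28 CPM in O2 and 7.43 CPM in O5. Among the lipid hydrolases and activators other than Lipa, they ran from 0.10 for Smpd1 (acid sphingomyelinase) to 0.42 ± 0.22 for Psap, with Asah1 (acid ceramidase) at 0.42, Npc2 at 0.23 and Ppt1 (a depalmitoylating enzyme) at 0.17. The genes named here as the ends of a range were chosen after their values were seen.

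**Figure D2:**
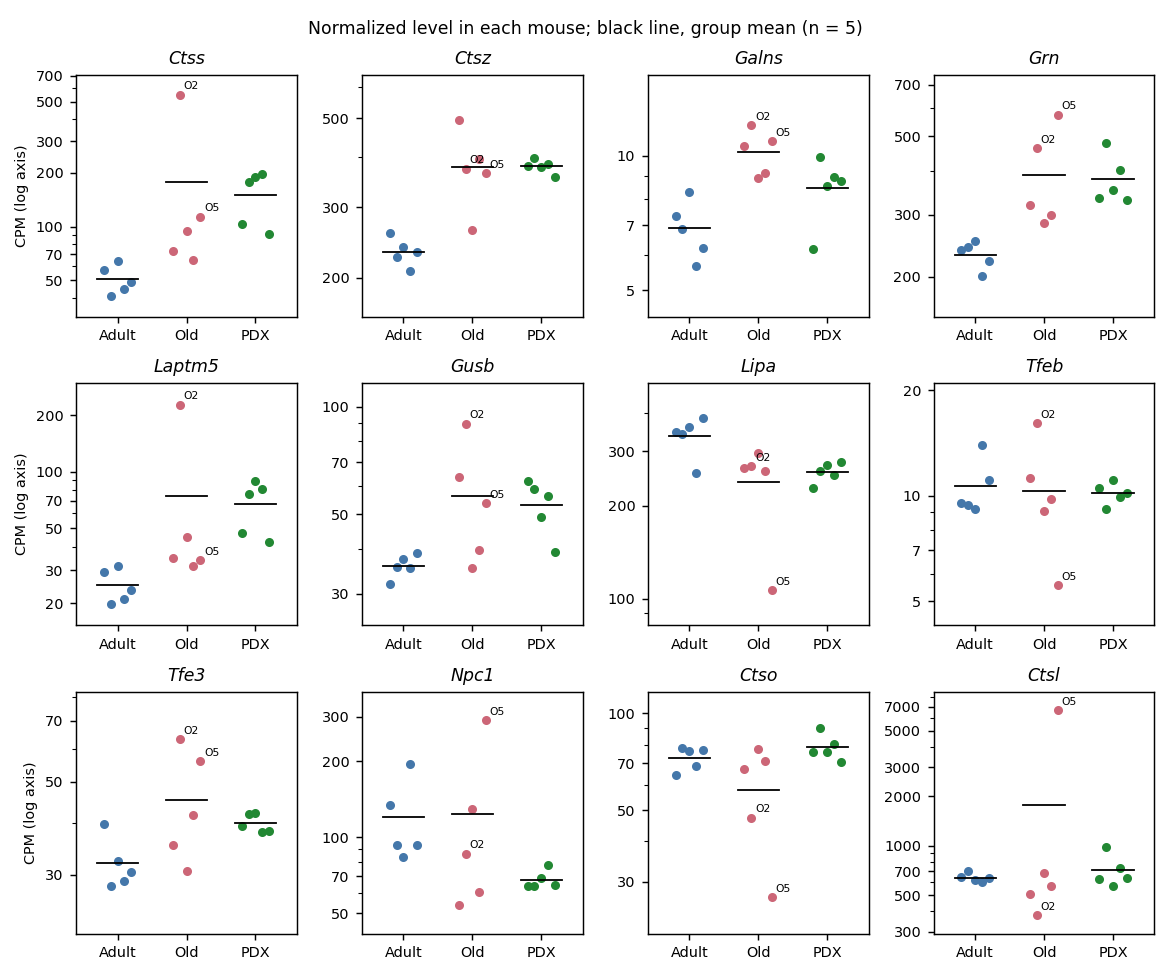
CPM of 12 genes in each mouse on log axes, with the group mean as a black line. Ctsz and Grn are higher in every Old and PDX mouse than in every Adult mouse, while the Old means of Ctss, Laptm5 and Ctsl are pulled up by 1 mouse each.

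O2 and O5 stood apart from the other Old mice over all genes, and the 40 genes are described here against that background. O2 had the highest level of the 5 Old mice for 23 of the 40 genes, and for 24.9% of all genes tested. O5 had the lowest for 18 of the 40 and the highest for 9, compared with 35.1% and 30.9% of all genes. Relative to the mean of O1, O3 and O4, 20 genes were at least 1.5-fold higher in O2 and 2 were lower by that factor, where 23.0% of all genes were higher and 20.9% lower. In O5, 9 of the 40 were at least 1.5-fold higher and 9 lower, where 25.2% of all genes were higher and 32.5% lower. The median ratio over the 40 genes was 1.502 in O2 and 0.94 in O5, compared with 0.980 and 0.955 over all genes. At 1.5-fold, the shares for O5 were below those of all genes on both sides, and these counts show nothing particular to the 40 genes in that mouse. The counts describe 2 single mice and were not tested.

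The genes that were higher in O2 included Ctss at 7.01-fold, Laptm5 at 6.13-fold, Ctsc (cathepsin C, which activates granule serine proteases) at 3.40-fold, Man2b1 (lysosomal alpha-mannosidase) at 2.30-fold and Psap at 2.28-fold the mean of O1, O3 and O4. In O5, by contrast, Ctsc was at 0.285-fold and Hexa at 0.39-fold, the opposite side of O1, O3 and O4 from O2. Among the genes, 5 were at least 1.5-fold higher in O2 and lower by that factor in O5 (Ctsb, Ctsc, Glb1, Hexa and Tfeb), and 5 were higher in both (Ctsd, Ctsk, Grn, Idua and Tfe3). All of these genes were picked by their values, apart from Tfeb and Tfe3, and the values of O2 and O5 enter the fold changes by which Ctss, Laptm5 and Grn were named.

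Ctsl (cathepsin L, a major endopeptidase of the lysosome; chr13:64359337-64370890, minus strand) separated O5 from every other mouse. It was at 645, 698, 615, 604 and 632 CPM in A1 to A5, 509, 378, 686, 569 and 6677 in O1 to O5, and 627, 979, 568, 729 and 639 in P1 to P5. The O5 level was 11.4-fold the mean of O1, O3 and O4, and O2 had the lowest level of the 15 mice. The log2 fold change of Old over Adult was 1.47 ± 0.66 (SE; edgeR quasi-likelihood test, adjusted p = 0.161), and without O5 it was -0.26. The summed CPM of the 40 genes was 12722 in O5 and 10519 in O2, compared with 6752 to 7369.6 in the Adult and 7151 to 8516 in the PDX mice. Without Ctsl the sum was 6046 in O5, lower than in any other mouse, and 10141 in O2, higher than in any other.

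**Figure D3:**
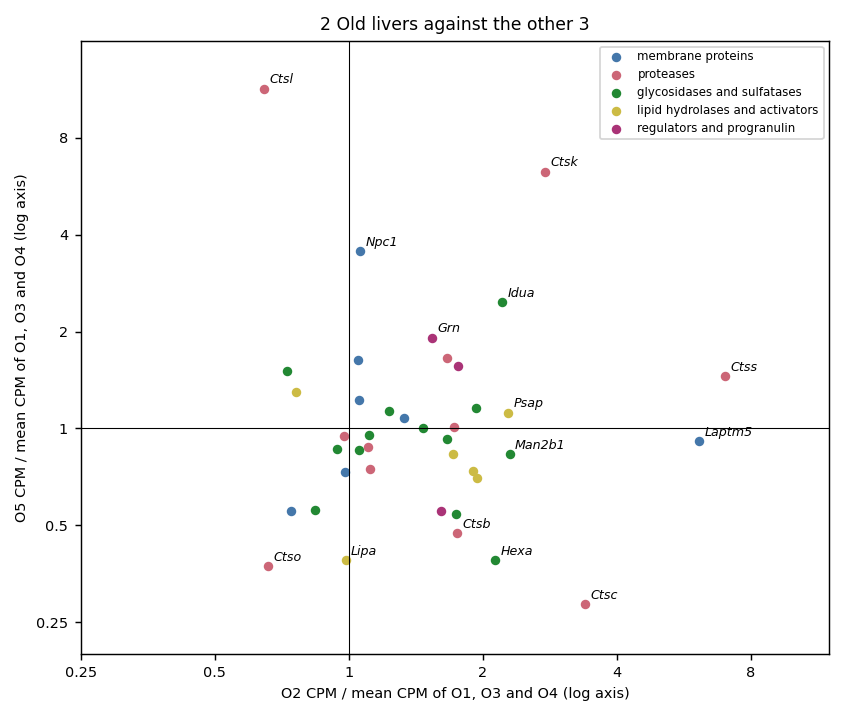
CPM in O2 (horizontal) and in O5 (vertical), each divided by the mean of O1, O3 and O4, on log axes, 1 point per gene. Ctss and Laptm5 lie far to the right with O5 near 1, Ctsl lies at the top with O2 below 1, and Ctsc lies at the lower right.

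Some markers of immune cells also passed the test in Old compared with Adult, where 4.71% of all genes were called higher and 2.07% lower. The summed level of 11 Kupffer cell markers was 618 to 916 CPM in the Adult, 551 to 4818 CPM in the Old and 1098 to 2298 CPM in the PDX mice, with O2 at 4818 and O5 at 551. None of the 11 was at 0 in any mouse, the lowest value being 2.27 CPM for Timd4, and 0 of 11 passed the test in Old compared with Adult. For 10 markers of monocytes and recruited macrophages the sums were 60.5 to 73.8, 100.2 to 413 and 115 to 184 CPM, and 5 of 10 were called higher in Old. For 10 markers of neutrophils and myeloid progenitors the sums were 6.09 to 11.3, 26.2 to 302 and 56.9 to 213 CPM, and 8 of 10 were called higher in Old. Camp was at 0 in A4 and A5 and Elane in A1. Elane, Mpo and Camp were at most 0.137 CPM in the Adult mice. There Ngp was at 0.0574 to 0.730 CPM, Ltf at 0.0562 to 0.705 and Prtn3 at 0.112 to 0.638. Elane, Mpo, Camp, Ngp, Ltf and Prtn3 thus passed the filter on low counts only through the Old and PDX mice. Their calls as higher in Old are therefore not independent of the filter. Prtn3 made up 63.1 of 78.1 CPM in O4 but 31.7 of 302 CPM in O2. Pan-leukocyte markers (7 genes) summed to 147 to 171, 113 to 913 and 206 to 348 CPM, with 1 of 7 called higher in Old. B cell markers (7 genes) summed to 6.27 to 10.1, 10.6 to 119 and 17.8 to 67.5 CPM, with 4 of 7 called higher, and T cell markers (9 genes) to 5.34 to 10.6, 3.75 to 193 and 11.3 to 36.2 CPM, with 0 of 9 called. The B cell sum was 119 CPM in O2 and 104 CPM in O3, and 10.6 to 16.8 CPM in the other Old mice. For T cell markers O2 was at 193 CPM and the other Old mice at 3.75 to 10.5 CPM. The macrophage markers did not move together in O5. There the Kupffer cell sum was the lowest of the 15 mice but the monocyte and recruited macrophage sum was 130.01 CPM, above the Adult range. Spp1 (56.4 CPM) and Cd9 (42.4 CPM) made up most of that O5 sum. Ccr2, Cx3cr1 and Ly6c2 were at their lowest of the 15 mice in O5, and Ms4a7 was within the Adult range. Itgam, Itgax, Trem2, Fcgr4, Spp1 and Cd9 were above the Adult range in O5. Within the Kupffer list, Marco was at 91.3 CPM in O5 and at 4.93 to 31.9 CPM in the Adult mice, and Clec4f was at 50.97 CPM in O5 and at 164 to 230 CPM in the Adult mice. The part of these cells in the lysosomal differences was not tested.

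Among the other lists, summed sinusoidal endothelial markers (7 genes) were 360.0 to 395 CPM in the Adult and 143 to 333 CPM in the Old mice, and 0 of 7 were called. Stellate cell and fibroblast markers (8 genes) were 358 to 398 and 375 to 1047 CPM, and 2 of 8 were called higher. Cholangiocyte markers (7 genes) were 39.1 to 52.6 and 53.5 to 104 CPM, and 0 of 7 were called. Spp1 is in both the cholangiocyte and the monocyte and recruited macrophage lists, and at 31.7 to 40.6 CPM in the Adult and 40.03 to 60.5 CPM in the Old mice it made up most of the cholangiocyte sum in every Adult mouse and a large part of the monocyte and recruited macrophage sum. Of 9 hepatocyte markers 1, Cyp2e1, was called lower in Old. The shares over all genes were 4.71% higher and 2.07% lower.

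**Figure D4:**
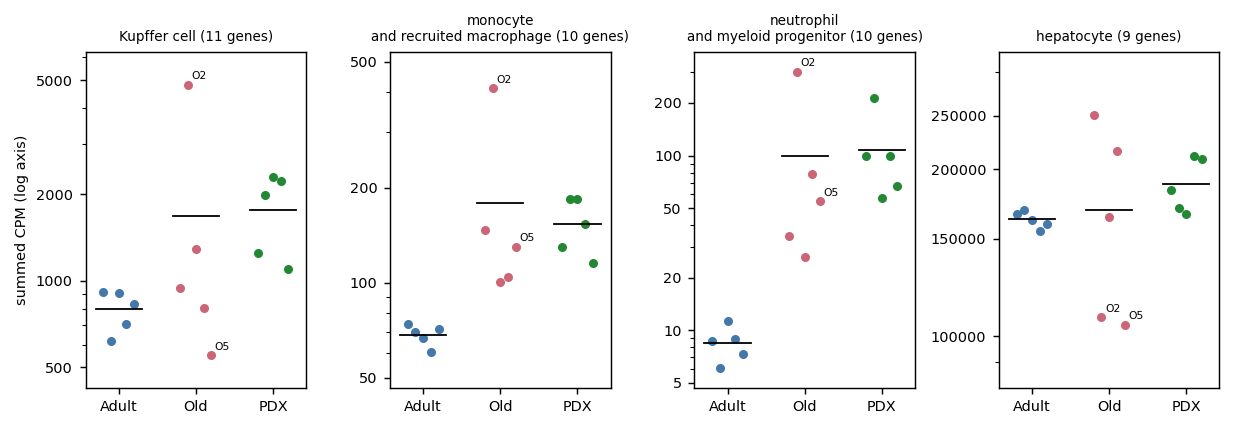
Summed CPM of 4 marker lists in each mouse on log axes, with the group mean as a black line. O2 is highest for the Kupffer cell, monocyte and neutrophil lists, O5 is lowest for the Kupffer cell list, and both are lowest for the hepatocyte list. Alb makes up most of the hepatocyte sum in each Adult mouse.

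Tfeb and Tfe3 encode transcription factors that bind E-boxes in lysosomal promoters when they are in the nucleus. Tfeb was at 9.53, 9.44, 9.16, 13.98 and 11.1 CPM in A1 to A5, 11.2, 16.2, 9.05, 9.81 and 5.56 in O1 to O5, and 10.5, 9.19, 11.1, 9.90 and 10.2 in P1 to P5. O2 was the highest and O5 the lowest of the 15 mice, and the log2 fold change of Old over Adult was -0.04 ± 0.22 (SE; edgeR quasi-likelihood test, adjusted p = 0.927). Tfe3 was at 39.8, 28.2, 32.4, 28.9 and 30.5 CPM in A1 to A5, 35.3, 63.3, 30.6, 41.8 and 55.99 in O1 to O5, and 39.2, 41.9, 42.2, 37.9 and 38.2 in P1 to P5. O2 and O5 were the highest, O1 and O3 lay within the Adult range, and the log2 fold change of 0.51 ± 0.17 (adjusted p = 0.0804, edgeR) did not pass the threshold, and was 0.18 without both O2 and O5.

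The promoters were examined for E-box letters because the TFEB family binds them. RefSeq windows of build GRCm38.p6, from 250 bases before to 50 bases after the transcription start, were matched by symbol for 35 of the 40 genes (40 windows). Ctsb, Asah1, Npc1, Ctsh and Galns had no window. The palindrome CACGTG, which reads the same on both strands, occurred in 10 of 35 genes (28.6%) and in 8.09% of the 27025 genes of the table. TCACGTG on either strand, which contains it, occurred in 9 of 35 (25.7%) and in 4.29% of all genes. The longer palindrome TCACGTGA occurred in 4 of 35 (11.4%) and in 1.12%. Below is 1 stretch for each of the 10 genes, shown because these are the genes with the letters, read on the gene's strand with CACGTG in capitals.
Ctsa (chr2:164833749-164833778, plus strand): tgagcaaactgtCACGTGatgcagatgctc
Ctsd (chr7:142387908-142387937, minus strand): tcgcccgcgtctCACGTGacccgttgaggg
Mcoln1 (chr8:3500462-3500491, plus strand): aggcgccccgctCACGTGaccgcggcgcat
Gla (chrX:134601215-134601244, minus strand): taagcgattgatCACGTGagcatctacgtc
Lamp1 (chr8:13159088-13159117, plus strand): agggcaagatatCACGTGgtccagcgccca
Glb1 (chr9:114401018-114401047, plus strand): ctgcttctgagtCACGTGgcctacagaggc
Naglu (chr11:101070009-101070038, plus strand): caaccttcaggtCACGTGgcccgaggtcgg
Gaa (chr11:119267811-119267840, plus strand): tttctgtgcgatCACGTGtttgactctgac
Sgsh (chr11:119355522-119355551, minus strand): gggcctgccgtgCACGTGaccgtggggagc
Ctsl (chr13:64370739-64370768, minus strand): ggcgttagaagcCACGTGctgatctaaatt

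The stretches of Ctsa, Ctsd, Mcoln1 and Gla hold the longer palindrome TCACGTGA. Measured from the RefSeq start to the first base of CACGTG, the Ctsa stretch lay 12 bases upstream, that of Sgsh 29, that of Glb1 48 and that of Naglu 73, while those of Gla and Ctsl lay 227 and 236 bases upstream. The Lamp1 window held 4 copies, between 15 and 61 bases upstream. None of the 10 genes with CACGTG was called in Old compared with Adult, and 3 of the 25 genes without it were (Ctsz, Ctss and Grn), where 6.78% of all genes were called in either direction. The difference between these counts was not tested, and nothing is read from it. The median log2 fold change was 0.13 over the 10 genes, ranging from -0.18 for Naglu to 1.47 for Ctsl, and 0.18 over the 25 genes, ranging from -0.50 to 1.81. A match of letters is a description of these windows and not evidence of binding.

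The second question was whether the livers of PDX mice differed from those of vehicle-treated Old mice. Of the 40 genes, 0 passed the threshold of 0.25 used in the study and 0 passed 0.05, and among all 15808 genes 0% were called (edgeR). At an unadjusted p under 0.05, 1 of the 40 genes (Npc1) and 834 of all genes (5.28%) were found, and DESeq2 called 0 of the 40 and 1 gene in all at 0.25 (0.00344%). In no gene of the list were the groups free of overlap, compared with 0.342% of all genes. The median log2 fold change was -0.06 over the 40 genes and -0.07 over all genes, and without O2 the former was 0.10. The smallest adjusted p among the 40 was 0.793.

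The 3 genes with the smallest p were Npc1, Ctso and Ctsl. Npc1, the membrane protein that exports cholesterol from the lysosome (chr18:12189692-12236400, minus strand), was at 134, 93.2, 83.4, 196 and 92.8 CPM in A1 to A5, 54.02, 86.2, 129, 60.97 and 289 in O1 to O5, and 63.99, 64.4, 68.9, 77.6 and 64.9 in P1 to P5. O5 was the highest and O1 the lowest of the 15 mice, and the 5 PDX values lay within the Old range and below every Adult value. The log2 difference of PDX from Old was -0.87, with a 95% interval from -1.71 to -0.02 (t distribution, 12 residual degrees of freedom), and the adjusted p of edgeR was 0.793. Without O5 the difference was -0.28, and without both O2 and O5 it was -0.25. Ctso (cathepsin O, a cysteine protease) was at 64.3, 78.2, 76.3, 68.6 and 77.02 CPM in A1 to A5, 67.1, 47.3, 77.3, 71.1 and 26.8 in O1 to O5, and 75.7, 89.9, 75.99, 80.4 and 70.7 in P1 to P5. O5 and O2 were the lowest mice, and the difference was 0.44, with a 95% interval from -0.03 to 0.90. Without O5 the difference of Ctso was 0.26, and without both O2 and O5 it was 0.14. The difference of Ctsl was -1.32, with a 95% interval from -2.74 to 0.11, and without both O2 and O5 it was 0.28.

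For the 4 genes called in Old, the difference of PDX from Old did not pass the threshold, and the intervals leave room for differences in either direction. The log2 difference of Ctsz was 0.01, with a 95% interval from -0.32 to 0.33. That of Grn was -0.03, with a 95% interval from -0.46 to 0.39. Galns had a difference of -0.27, with a 95% interval from -0.60 to 0.06, and Ctss had -0.24, with a 95% interval from -1.32 to 0.84. The narrowest interval among the 40 genes was that of Neu1 (a sialidase), whose difference was -0.17, with a 95% interval from -0.37 to 0.02, and the widest was that of Ctsl.

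The third comparison set the PDX mice against the Adult mice, with the Adult mice shared with the first comparison. Of the 40 genes, 1 was called higher (Ctsz) and 0 lower, where 1.76% of all genes were called higher, 0.898% lower and 2.66% in all. The log2 fold change of Ctsz was 0.71 ± 0.15 (SE; edgeR quasi-likelihood test, adjusted p = 0.0196), and its PDX values of 357 to 399 CPM had a smaller spread than the Old values. The call was lost without A2, A3, A4, A5, P1, P2 or P4, with a highest adjusted p of 0.0659, and 6 genes were called without O2 (11.1% of all genes) and 4 without O5 (10.9%). Between PDX and Adult, 10 of the 40 genes did not overlap, 8 higher and 2 lower, compared with 10.5% of all genes higher and 9.34% lower. The 8 higher were Ctsz, Ctss, Ctsc, Grn, Laptm5, Gusb, Psap and Npc2 (a soluble cholesterol carrier), and the 2 lower were Npc1 and Lamp2 (a membrane protein needed for autophagosome fusion). The median log2 fold change was 0.09 over the 40 genes and -0.01 over all genes.

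The count differed with the mice that entered the fit. When the 10 Adult and PDX mice were fitted alone, 16 of the 40 genes were called, 12 higher and 4 lower, where 16.1% of all genes were called higher, 13.5% lower and 29.6% in all. The 12 higher were Asah1, Ctsc, Ctsd, Ctss, Ctsz, Grn, Gusb, Hexa, Laptm5, Npc2, Psap and Tfe3, and the 4 lower were Lamp2, Lipa, Npc1 and Scarb2. In the fit of all groups without O2 and O5, 15 were called, 11 higher and 4 lower, where 24.6% of all genes were called. In the fit of all 15 mice, the log2 fold changes of PDX over Adult were 1.57 ± 0.51 (adjusted p = 0.107, edgeR) for Ctss, 1.43 ± 0.50 (adjusted p = 0.126, edgeR) for Laptm5 and 0.71 ± 0.20 (adjusted p = 0.0668, edgeR) for Grn. For Lipa the value was -0.39 ± 0.22 (adjusted p = 0.322, edgeR), and for Npc1 it was -0.82 ± 0.39 (adjusted p = 0.247, edgeR).

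**Figure D5:**
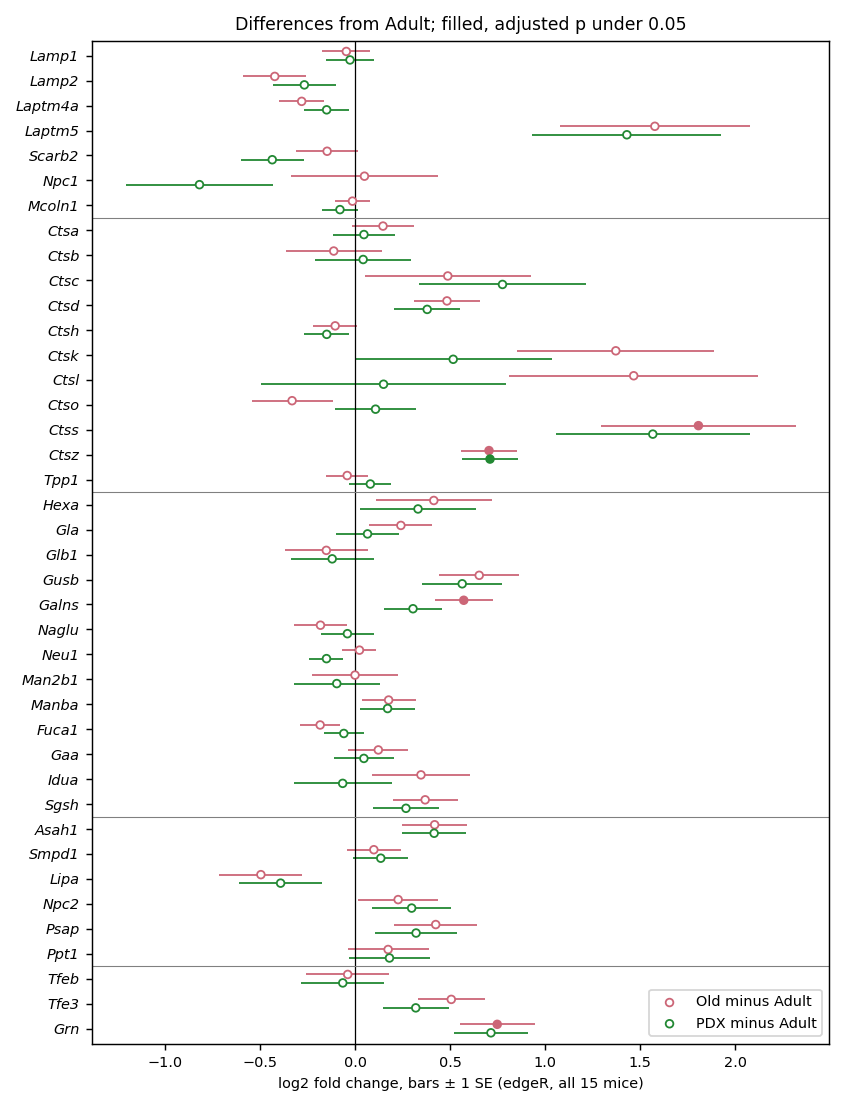
Log2 fold change of each gene in Old and in PDX relative to the same 5 Adult mice, with bars of 1 SE, from the fit of all 15 mice. Filled points pass the threshold, which are Ctss, Ctsz, Galns and Grn in Old and Ctsz in PDX.

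Other genes of the lysosomal pathway were counted in the same fits. Of 17 V-ATPase subunits, 0 were called in any comparison, with a median log2 fold change of 0.24 in Old compared with Adult. Of 25 other lysosomal enzymes, 2 were called higher in Old (Ctse and Lgmn), and of 15 other membrane proteins 2 (Cd63 and Gpnmb). Hgsnat was in both of these lists. Over all genes, 4.71% were called higher in Old and 2.07% lower. Of 10 genes of mannose 6-phosphate and sortilin sorting and of 21 genes of nutrient sensing at the lysosome, 0 were called. Of 21 autophagy genes, 1 (Gabarapl1) was called lower in Old. In PDX compared with Adult, Lgmn and Gpnmb were called higher and Gabarapl1 lower, where 1.76% of all genes were called higher and 0.898% lower. In PDX compared with Old, 0 genes of these lists were called.

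Gpnmb, a membrane glycoprotein of lipid-laden macrophages, was at 0.450, 0.247, 0.684, 0.220 and 0.143 CPM in A1 to A5, 8.20, 27.3, 19.00, 6.69 and 71.7 in O1 to O5, and 37.3, 5.82, 33.4, 4.64 and 8.15 in P1 to P5. Every Old and PDX value was above every Adult value, and the log2 fold change of Old over Adult was 6.28 ± 0.91 (SE; edgeR quasi-likelihood test, adjusted p = 0.00372). The Adult values of Gpnmb were near the floor, and it passed the filter on low counts only through the Old and PDX mice. Its call is therefore not independent of the filter, and the size of its fold change is uncertain. Cd63, a tetraspanin of late endosomes and lysosomes, was at 3.57, 2.43, 3.97, 3.66 and 3.62 CPM in A1 to A5, 9.47, 20.7, 5.54, 6.43 and 48.01 in O1 to O5, and 8.01, 7.39, 11.5, 6.04 and 7.05 in P1 to P5. All Old values exceeded the Adult values, and the log2 fold change was 2.39 ± 0.50 (adjusted p = 0.0189, edgeR). Lgmn, the asparaginyl endopeptidase that matures several cathepsins, was at 89.7, 66.8, 87.4, 75.4 and 76.8 CPM in A1 to A5, 116, 272, 134, 97.7 and 192 in O1 to O5, and 133, 172, 195, 213 and 110.0 in P1 to P5. The Old and PDX values all lay above the Adult values, and the log2 fold change was 1.03 ± 0.26 (adjusted p = 0.031, edgeR).

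Ctse (cathepsin E, an aspartic protease of endosomes) was at 0.281, 0.528, 0.456, 0.512 and 0.143 CPM in A1 to A5, 0.212, 22.7, 2.41, 0.929 and 18.3 in O1 to O5, and 1.26, 2.13, 0.883, 1.04 and 1.20 in P1 to P5. O2 and O5 were far above the rest, and the log2 fold change was 4.54 ± 0.98 (adjusted p = 0.0216, edgeR). As for Gpnmb, the Adult values of Ctse were near the floor, and the Adult mice alone would not have carried it past the filter on low counts. Gabarapl1, an ATG8-family protein of the autophagosome membrane, was at 617, 369.9, 436, 491 and 396 CPM in A1 to A5, 137, 184, 309, 204 and 392 in O1 to O5, and 188, 202, 255, 193 and 287 in P1 to P5. It was lower in the Old and PDX groups, although O5 lay within the Adult range, and the log2 fold change of Old over Adult was -0.91 ± 0.26 (adjusted p = 0.0467, edgeR).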

How the data were processed

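Liver mRNA from 15 mice was measured with 1 library per mouse, grouped by the labels. Alignment by the authors used STAR 2.6.0c and the mm10 build, and they counted the reads per Ensembl gene and strand with featureCounts (Subread 1.6.2), and these deposited counts are not normalized. They also deposited log2-scale values, for which they put the counts through the variance stabilizing method in DESeq2 1.23.10. Every column carried a mouse label, and 0 columns were left without one. Of 55450 gene IDs, 55190 received a GENCODE M21 symbol, and coordinates and exon lengths are from that GRCm38 annotation.

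Counts were filtered with filterByExpr (minimum count 10, minimum total 15), TMM-scaled and fitted with 1 coefficient per group in edgeR 4.0.16 (R 4.3.3, limma 3.58.1), with Benjamini-Hochberg adjustment over all genes and thresholds of 0.05, and of 0.25 between PDX and Old. Nothing in the labels places mice in euthanasia batches, so no within-batch values were computed. On simulated counts in which 200 genes were given a log2 difference of 2 between Old and Adult, 152 were recovered (76%) among 157 calls, 5 of them false, and 0 calls were made when no gene changed (15641 and 15646 genes). The called genes of the list had smaller differences, from 0.57 to 1.81, and no simulated mouse was set apart as O2 and O5 were. The simulation therefore does not show how the fit performs under those conditions.

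The members, lists and tests were chosen with earlier results of these data known. Genes given in every mouse were those called, the largest absolute log2 fold change of each role class in Old compared with Adult, Tfeb and Tfe3, and the 3 genes with the lowest p for PDX against Old. Ctsd was added after its values were seen. From each pathway list, up to 3 called genes were named. Alternatives were DESeq2 1.42.0, limma on the deposited log2 values, other scalings and filters, fits of 10 mice, fits without each mouse or without O2 and O5, and a replicate block. Motifs were searched as exact letters in RefSeq promoter windows.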

Additional observations from a re-analysis of the deposited data

Results flagged for a closer look

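Within each group of 5 mice, the gap between the highest or lowest mouse and its nearest neighbour was divided by the range of the group, and a value above Dixon's critical value of 0.71 set a mouse apart. For 120 groups of 5 values of single genes and 21 groups of sums, 17 values were above it, 14 of them of single genes, and chance gives about 1 in 20 groups. O2 was set apart as the highest Old mouse for Laptm5 (0.932), Ctsa (0.783), Ctsc (0.729), Ctss (0.900), Man2b1 (0.843), Asah1 (0.729), Npc2 (0.719) and Psap (0.894). It was set apart in the same way for these sums: the 40 genes without Ctsl (0.895), glycosidases and sulfatases (0.752) and lipid hydrolases and activators (0.879). O5 was set apart as the highest Old mouse for Ctsl (0.951) and as the lowest for Lipa (0.811). In the other groups, A3 was the highest Adult mouse for Ctsd (0.722), A5 the lowest for Ctsk (0.741), A4 the lowest for Npc2 (0.827), and P5 the lowest PDX mouse for Ctsd (0.872).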

How the results depend on the processing

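All 15 mice entered 1 fit and shared 1 estimate of the spread, and calls near the threshold changed when single mice of any group were left out. Relative log expression scaling and a filter of at least 1 CPM in at least 5 mice left the 4 called genes of the list in place, as did upper-quartile scaling.

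For Old compared with Adult, the count over all genes of 1072 became 2642 with DESeq2, 651 with limma on the deposited values, 665 without a filter on low counts and 105 with the 10 mice alone. The count among the 40 genes of 4 became 7, 2, 1 and 0 in the same order, and 1 without both O2 and O5. Leaving out single mice gave 156 to 2178 genes in all and 0 to 8 of the 40, with a median log2 fold change from 0.02 to 0.23. For PDX compared with Old, DESeq2 called 1 gene, and leaving out single mice gave 0 genes in all and 0 of the 40. The median log2 fold change of the 40 genes became 0.012 with limma and 0.10 without both O2 and O5, and ranged from -0.10 to 0.10 without single mice. For PDX compared with Adult, the count over all genes of 420 became 1401 with DESeq2, 4529 with the 10 mice alone and 4004 without both O2 and O5, and the count among the 40 of 1 became 4, 16 and 15, and 2 with upper-quartile scaling. Leaving out single mice gave 166 to 1766 genes in all and 0 to 6 of the 40, with a median from 0.07 to 0.13.

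The log2 fold change of Npc1 in Old compared with Adult became -0.16 with limma and -0.54 without both O2 and O5, and that of Ctsl became -0.11 without both. Without single mice it ranged from -0.54 to 0.29 for Npc1, from -0.26 to 1.75 for Ctsl and from -0.25 to 0.12 for Tfeb. The difference of Ctsl between PDX and Old became 0.28 without both O2 and O5 and ranged from -1.59 to 0.40 without single mice. The difference of Npc1 between PDX and Old ranged from -1.08 to -0.28 and that of Ctso from 0.26 to 0.56 without single mice. The causes of these changes were not tested.

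Mice with the same number share only that number: the correlation of their deviations from the group means averaged -0.17 for Old and Adult, 0.09 for PDX and Old and 0.03 for PDX and Adult. With the replicate number as a block, 237 genes in all and 0 of the 40 were called in Old compared with Adult, the median between PDX and Old was 0.0085, and the log2 fold change of Npc1 in Old compared with Adult was -0.10.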

Other observations

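O5, the mouse with the highest Ctsl, had the highest frailty index of the 15 mice (0.56) and the shortest voluntary running (0.0399 km per day). It had 4 positive frailty criteria, as did O4 and P5. O2, the mouse with the highest Ctss and Laptm5, had a frailty index of 0.11, 3 positive criteria and the shortest treadmill distance of the 15 mice (33.9 m, compared with 46.6 m for O5). These are values of 2 mice, and no relation across mice was tested.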
